A study of Bos taurus with 16 samples.

Results

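The matrix metalloproteases (MMPs), the ADAMTS proteases with their ADAMTS-like relatives, and the tissue inhibitors of metalloproteases (TIMPs) were measured in the liver of beef steers that differed in gain and feed intake. Members were all transcript clusters, the probe sets of the array, whose annotation gave exactly 1 gene symbol and whose symbol started with ADAMTS, with TIMP and a digit, or with MMP and a digit. This rule used names only and gave 50 of 26773 transcript clusters, for 47 gene symbols. There were 21 clusters of MMPs for 20 symbols, 19 of ADAMTS proteases, 5 of ADAMTS-like proteins for 4 symbols and 5 of TIMPs for 4 symbols. MMP1, TIMP2 and ADAMTSL1 were each measured by 2 clusters, which are kept apart and named with their number.

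MMPs are zinc-dependent proteases that cut collagens, gelatin, proteoglycans and other proteins outside the cell, and most are made as inactive precursors. ADAMTS proteases carry thrombospondin repeats and cut proteoglycans, procollagens or clotting proteins, whereas ADAMTS-like proteins share the repeats but lack the protease domain. TIMPs bind the active site of these enzymes. In liver the balance between them is best known from fibrosis, where stellate cells, macrophages and other non-parenchymal cells make many of them.

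The 16 animals were crossbred steers, not yet a year old when the trial began, fed a high-concentrate ration with wet distillers grains for 78 days with free access to feed. The steers farthest from the joint mean of gain and intake were taken in each quadrant, 4 steers per group. The groups are named here by gain and then intake: HGHI for the high gain-high intake steers, HGLI for high gain-low intake, LGHI for low gain-high intake and LGLI for low gain-low intake. All animals had the same diet, no group was treated, several breeds were present, and the groups were therefore observed extremes of 1 feeding trial and not an intervention. A piece of the right lobe of each liver gave 1 RNA sample and 1 array. The methods report RNA integrity that differed between the samples, but the labels do not give it for each steer. The methods state that 1 steer of each group was harvested on each of 4 days, but the labels do not give the day of a steer. Values are signals on the log2 scale, so that a difference of 1 is a doubling. Signals of different clusters depend on their probes and do not rank the genes.

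The arrays fell into 2 sets of 8 that the labels do not name, told apart by the median signal of the array, where the sorted medians had their widest gap. Set 1 was the first 8 arrays of the series, with animal numbers 20133015 to 20133181. Set 2 was the last 8, with animal numbers 20133327 to 20133697. Set 1 had medians of 7.41 to 7.47 and held 1 HGHI, 2 HGLI, 2 LGHI and 3 LGLI steers. Set 2 had medians of 7.16 to 7.28 and held 3, 2, 2 and 1 steers of those groups. The sets did not overlap in 4 members (ADAMTS3, ADAMTS4, ADAMTS18 and ADAMTS20), which is 8% of the members beside 6.56% of all clusters. The median difference, set 1 minus set 2, was 0.13 over the members and 0.21 over all clusters. The 10 hepatocyte markers, albumin among them, had a mean signal of 18.95 to 19.10 in the 4 groups and no marker of the list was called in any comparison below. In a piece of whole liver, fewer cells of a type and less RNA per cell cannot be told apart.

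A limma fit with 1 mean per group gave a moderated F over the 4 groups, a gain effect (high gain less low gain), an intake effect (high intake less low intake) and an interaction, which is the intake difference at high gain minus that at low gain. At an unadjusted p of 0.05 or less, the F called 1 of 50 members, ADAMTS5, beside 2.33% of all clusters. The gain effect called 0 members, beside 3.48% of all clusters. The intake effect called 1, ADAMTS7, beside 2.86%. The interaction called 2, beside 2.81%, ADAMTS5 with a positive value (1.15% of all clusters) and ADAMTSL3 with a negative one (1.66%). These counts are near or below the shares over all clusters and are no result about the members as a set. No member passed the Benjamini-Hochberg adjustment, and the smallest adjusted p from limma of any member in the 4 tests was 0.998. The ordinary F that the study's methods used called 3 members, ADAMTS5, ADAMTS7 and ADAMTS8, beside 2.72% of all clusters. Its contrasts called 4 members for gain (MMP8, MMP13, MMP25 and ADAMTSL1 cluster 12894406, beside 3.5%), 1 for intake (ADAMTS7, beside 2.98%) and 4 for the interaction (ADAMTS5, ADAMTS8, ADAMTSL3 and ADAMTSL4, beside 3.12%). When limma also had a term for the array set, it called 3 members in the F (ADAMTS5, ADAMTS8 and MMP1 cluster 12726701, beside 4.15%) and 2 for gain (MMP25 and TIMP2 cluster 12766730, beside 5.24%). In that fit 1 was called for intake (ADAMTS7, beside 3.66%) and 5 for the interaction (ADAMTS5, ADAMTS8, ADAMTS18, ADAMTSL3 and MMP1 cluster 12726701, beside 4.94%). The medians over the members were 0.00 for the gain effect, -0.02 for the intake effect and -0.08 for the interaction, beside -0.04, -0.03 and -0.04 over all clusters.

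**Figure D1:**
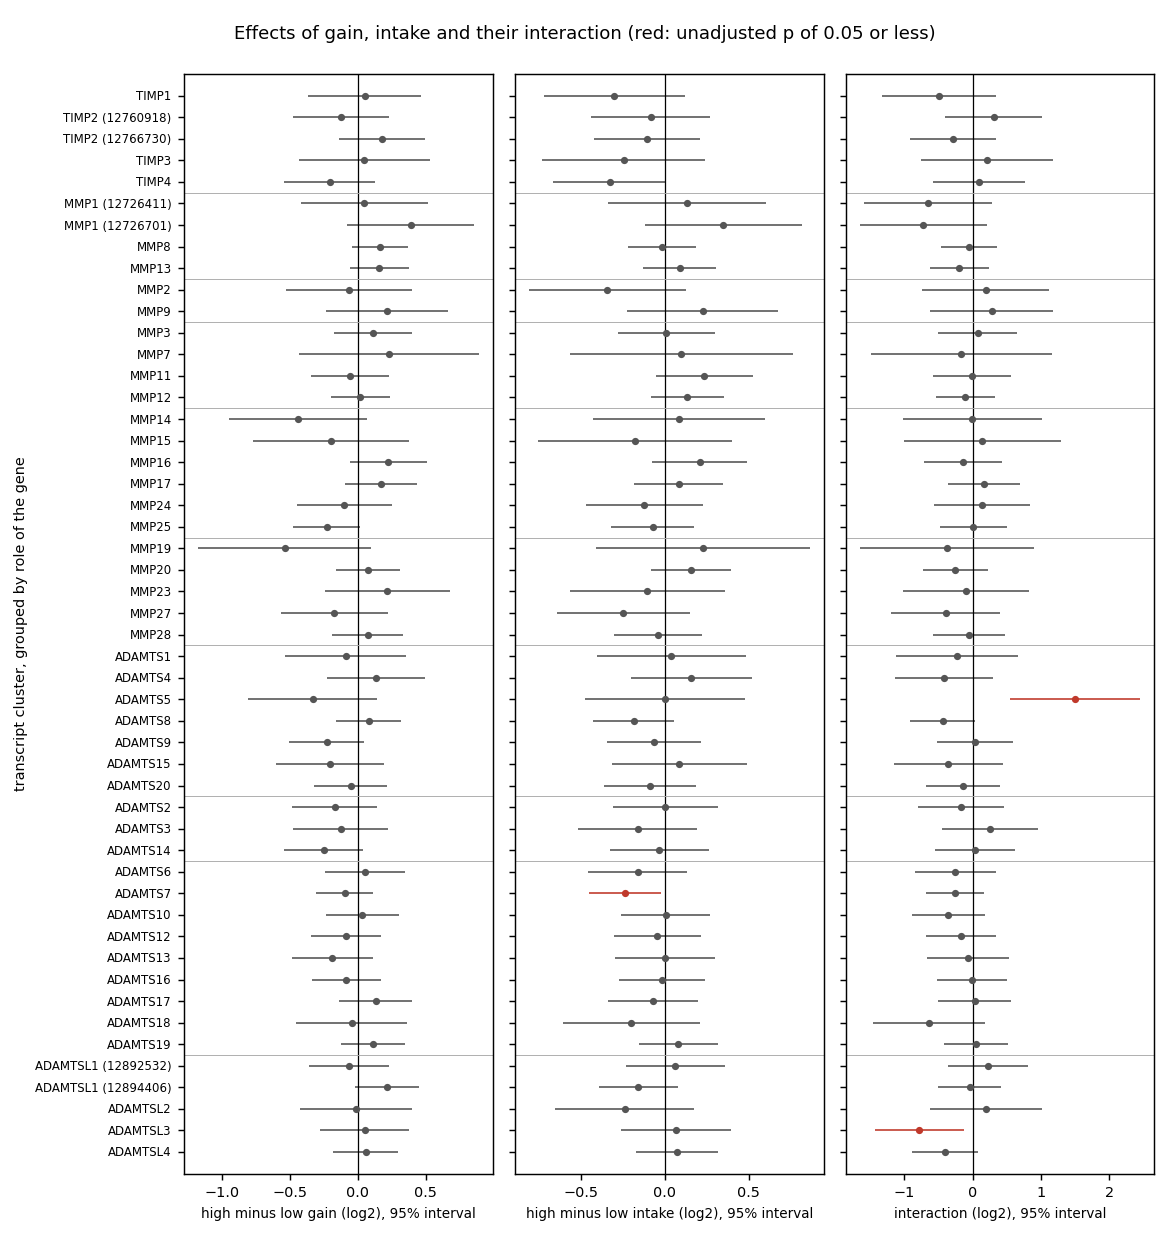
Gain effect, intake effect and interaction (log2, with 95% intervals from limma) of each of the 50 transcript clusters, grouped by role. Intervals in red leave out 0 without adjustment, which holds for ADAMTS5 and ADAMTSL3 in the interaction and for ADAMTS7 in the intake effect.

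ADAMTS5, the aggrecanase that cuts aggrecan and versican, had the smallest p of limma's F over the 4 groups among the members. In the ordinary F and in the exact permutation test of the 4 groups, ADAMTS7 had the smallest p. The signal of ADAMTS5 was 9.37, 9.75, 10.78 and 9.09 in HGHI steers and 9.63, 8.99, 9.02 and 8.33 in HGLI steers. It was 9.62, 9.14, 9.49 and 9.05 in LGHI steers and 9.96, 10.10, 10.15 and 10.10 in LGLI steers. The LGLI steers lay within a narrow band above every steer of the HGLI and LGHI groups, whereas the HGHI steers were spread from 9.09 to 10.78 and overlapped every group.

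The group means of ADAMTS5 were 9.75 ± 0.74, 8.99 ± 0.53, 9.33 ± 0.28 and 10.08 ± 0.08 in the same order (SD, n = 4). At high gain, high intake went with a signal 0.75 higher (SE 0.32), or 1.69-fold. At low gain it went with a signal that was lower by 1.68-fold, a difference of -0.75 (SE 0.32). Both SEs rest on 1 spread that the fit shares over the 4 groups, although their SDs ran from 0.08 to 0.74. The interaction was 1.50 (SE 0.45, 95% interval 0.55 to 2.46, unadjusted limma p of 0.00418), with a two-sided exact permutation p of 0.00715. The intake effect averaged over both gain classes was 0.00 (exact permutation p = 0.997) and the gain effect was -0.33 (exact permutation p = 0.287).

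Among the low intake steers, the high gain group was 2.12-fold below the low gain group in ADAMTS5, a difference of -1.08 (SE 0.32). Among the high intake steers the gain difference was 0.42 (SE 0.32), with overlapping groups. The F over the 4 groups had an unadjusted limma p of 0.0188 and an exact permutation p of 0.0352, and an adjusted limma p of 1.00. Without the HGLI steer of 8.33, the lowest of all 16, the limma p of the F was 0.0504. The interaction stayed between 1.16 and 1.72 when each steer was left out in turn, with limma p-values of 0.00135 to 0.0104, and was smallest without the HGHI steer at 10.78.

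Within the array sets the ADAMTS5 interaction was 0.74 in set 1 and 2.03 in set 2, where 1 HGHI steer and 1 LGLI steer, in that order, stood alone in their group. When steers were exchanged only within their array set, the exact permutation p was 0.00776. Markers of stellate cells and fibroblasts (11 of 13 named were measured, 1 with an unadjusted p of 0.05 or less, decorin, in the intake effect) had a mean signal of 9.03 to 9.42 in the HGHI, 9.14 to 9.52 in the HGLI, 9.13 to 9.52 in the LGHI and 9.37 to 9.63 in the LGLI steers. The interaction of this mean was 0.16. Markers of Kupffer cells and macrophages (9 of 9 measured) had mean signals of 9.70 to 10.86, 9.72 to 11.06, 9.62 to 10.95 and 10.36 to 11.27 in the same order of groups, with an interaction of 0.46. Of these, MARCO, a scavenger receptor of macrophages, had an interaction of 1.58 with an unadjusted limma p of 0.0216. MARCO was also called in the F and for intake, with a lower signal at high intake. CD163, another, was called in the F and for gain, with a gain effect of 0.57 and an interaction of 0.14. The median gain effect of the 9 markers was -0.35, with 2 of 9 positive. Their median interaction was 0.26, with 8 of 9 positive. The means of the other marker lists had interactions of 0.18 (hepatocytes), 0.05 (mesothelium), 0.04 (endothelium) and -0.04 (cholangiocytes). Those of neutrophils, smooth muscle and T and NK cells were -0.16, -0.27 and -0.47. The part of these cell types in the ADAMTS5 result was not tested.

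**Figure D2:**
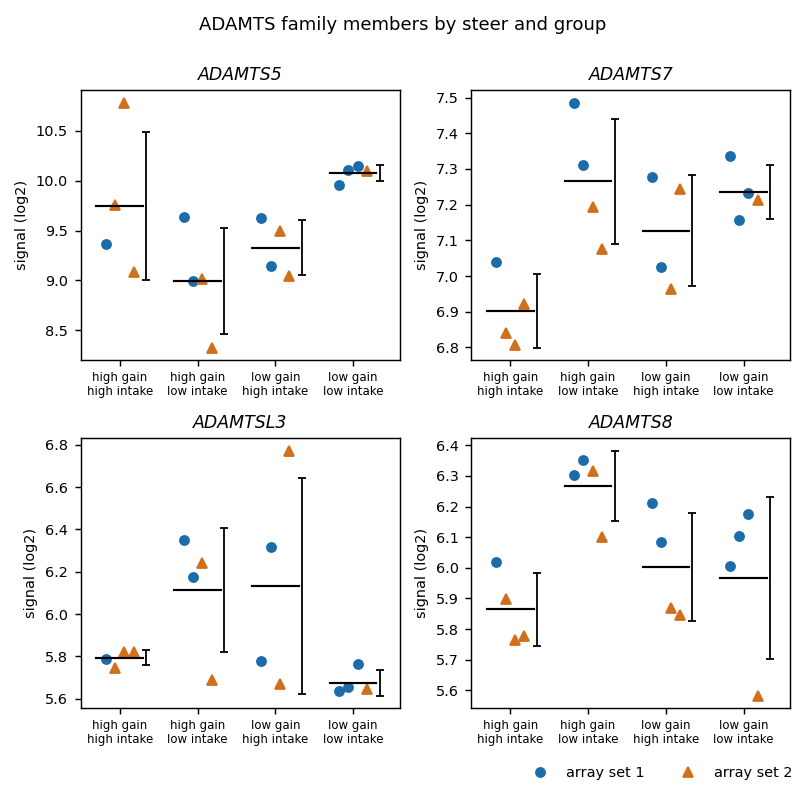
Signal (log2) of ADAMTS5, ADAMTS7, ADAMTSL3 and ADAMTS8 in each steer by group, with circles for array set 1 and triangles for array set 2, a line at the group mean and a bar of 1 SD on each side. The 4 LGLI steers lie between 9.96 and 10.15 in ADAMTS5, and the 4 HGHI steers between 6.81 and 7.04 in ADAMTS7.

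The gene next to ADAMTS5 in the bovine RefSeq annotation, ADAMTS1, cuts versican and aggrecan as well. Its signal was 8.28, 7.68, 8.65 and 8.13 in HGHI steers and 8.40, 8.25, 8.84 and 7.53 in HGLI steers. The values were 8.32, 8.39, 8.99 and 7.86 in LGHI and 8.22, 8.64, 7.84 and 8.25 in LGLI steers. All groups overlapped, and the interaction was -0.23 (SE 0.42, exact permutation p = 0.590), opposite in sign to that of ADAMTS5.

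ADAMTS8 is another proteoglycan-cutting protease of this group. Its signal was 6.02, 5.90, 5.76 and 5.78 in HGHI, 6.30, 6.35, 6.32 and 6.10 in HGLI, 6.21, 6.08, 5.87 and 5.85 in LGHI and 6.01, 6.10, 6.17 and 5.58 in LGLI steers. The HGLI steers were all above the HGHI steers and overlapped the other groups. The ordinary F gave p = 0.0433, limma's F p = 0.115, and the exact permutation test of the 4 groups p = 0.0473. The interaction was -0.44 (unadjusted limma p of 0.0701, exact permutation p = 0.0449), and -0.36 and -0.67 within array sets 1 and 2. The signal lay below the 25th percentile of its array on 15 of 16 arrays.

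ADAMTS9, a widely made secreted proteoglycanase, had signals of 8.38, 7.63, 7.68 and 7.76 in HGHI and 7.94, 7.85, 8.06 and 7.79 in HGLI steers. It had 7.95, 8.13, 7.98 and 8.24 in LGHI and 8.23, 8.35, 8.26 and 7.79 in LGLI steers. The groups overlapped, and the gain effect was -0.23 (exact permutation p = 0.0570). Within array sets 1 and 2 this effect was -0.02 and -0.14, and set 1 exceeded set 2 by 0.27 in ADAMTS9. ADAMTS20 was at 5.40, 5.16, 5.02 and 5.28 in HGHI, 5.82, 5.50, 5.01 and 5.16 in HGLI, 5.49, 5.49, 5.16 and 5.21 in LGHI and 5.39, 5.44, 5.41 and 5.17 in LGLI steers, below the 25th percentile of every array. Of the 7 proteoglycan-cutting ADAMTS clusters, ADAMTS5 and ADAMTS9 had a positive interaction, and ADAMTS5 was the one called by limma in all 16 steers as deposited without a term for the array set. ADAMTS8 was called with that term, after median subtraction (interaction) and without replicate 3 (interaction) or 4 (intake) of LGLI. ADAMTS9 was called for gain without replicate 1 of HGHI or 4 of LGLI.

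ADAMTS7 cuts cartilage oligomeric matrix protein and thrombospondins. Its signal was 7.04, 6.84, 6.81 and 6.92 in HGHI and 7.49, 7.31, 7.19 and 7.08 in HGLI steers. It was 7.28, 7.02, 6.96 and 7.24 in LGHI and 7.34, 7.16, 7.23 and 7.21 in LGLI steers. Every HGHI steer was below every steer of both low intake groups, while the LGHI steers overlapped all groups.

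The ADAMTS7 means were 6.90 ± 0.10, 7.27 ± 0.18, 7.13 ± 0.16 and 7.24 ± 0.08 (SD, n = 4). The intake effect was -0.24 (SE 0.10, 95% interval -0.45 to -0.02, unadjusted limma p of 0.0320), or 1.18-fold lower at high intake, with an exact permutation p of 0.00886. The adjusted limma p was 0.998. The difference was -0.36 at high gain and -0.11 at low gain (SE 0.14 each), and their difference was -0.26 (95% interval -0.68 to 0.17, exact permutation p = 0.184). Set 1 arrays were 0.20 above set 2 arrays in this gene. The intake effect was -0.23 within set 1 and -0.19 within set 2, and steers exchanged within sets gave an exact permutation p of 0.0141. The limma p was between 0.0503 and 0.0700 without each of 7 steers: replicates 2 and 3 of HGHI, 1 and 2 of HGLI, 2 and 3 of LGHI, and 1 of LGLI. Over the 4 groups the limma F of ADAMTS7 gave p = 0.0809, the ordinary F p = 0.00919 and the exact permutation test p = 0.0104.

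The remaining ADAMTS proteases had 0 calls in the limma fit to the deposited values of all 16 steers without a term for the array set. ADAMTS13, which cuts von Willebrand factor and in humans and mice is made largely by hepatic stellate cells, was at 7.13, 7.01, 6.62 and 6.55 in HGHI and 6.86, 7.25, 6.95 and 6.37 in HGLI steers. It was at 6.96, 7.11, 6.96 and 7.16 in LGHI and 7.06, 7.17, 7.11 and 6.70 in LGLI steers. The groups overlapped, with a gain effect of -0.19 (exact permutation p = 0.141) and an intake effect of 0.00 (exact permutation p = 0.978).

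The 3 procollagen N-proteinases, which trim the amino end of fibrillar procollagens, all had lower means at high than at low gain. The gain effects were -0.17 for ADAMTS2, -0.13 for ADAMTS3 and -0.25 for ADAMTS14, and the exact permutation p-values lay between 0.0527 and 0.442. Over all clusters 11152 of 26773 had a positive gain effect. Within array sets 1 and 2 the gain effects were 0.02 and -0.06 for ADAMTS2 and 0.04 and -0.002 for ADAMTS3. For ADAMTS14 they were -0.17 and -0.29. Each of these genes was higher in set 1, by 0.20 to 0.56. The part of the array sets in these gain effects was not tested. ADAMTS18 had an interaction of -0.64 (exact permutation p = 0.120), with group means of 5.78 ± 0.41, 6.30 ± 0.39, 6.14 ± 0.28 and 6.02 ± 0.48 from HGHI to LGLI (SD, n = 4). Its values did not overlap between the array sets, at a mean of 6.38 in set 1 and 5.74 in set 2. The ADAMTS18 interaction was called in limma with a term for the array set, at -0.44 within set 1 and -0.98 within set 2, and exchanges within sets gave an exact permutation p of 0.00653. ADAMTS19 was at 5.37, 5.13, 5.08 and 5.15 in HGHI, 5.20, 5.26, 4.98 and 4.87 in HGLI, 5.11, 4.82, 5.35 and 4.91 in LGHI and 5.0, 4.99, 4.84 and 5.13 in LGLI steers, below the 25th percentile of every array. ADAMTS6, ADAMTS10, ADAMTS12, ADAMTS16 and ADAMTS17 had gain and intake effects between -0.16 and 0.13.

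Among the ADAMTS-like proteins, ADAMTSL3 was the other member called for the interaction. Its signal was 5.79, 5.75, 5.82 and 5.82 in HGHI and 6.35, 6.18, 6.24 and 5.69 in HGLI steers. It was 5.78, 6.32, 5.67 and 6.77 in LGHI and 5.64, 5.66, 5.77 and 5.64 in LGLI steers. The HGHI and LGLI steers were tightly grouped at low signal, and 3 HGLI and 2 LGHI steers stood above all of them. The remaining steer of the former and 2 of the latter did not, so that these groups overlapped.

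The interaction of ADAMTSL3 was -0.78 (SE 0.31, 95% interval -1.43 to -0.13, unadjusted limma p of 0.0218), with an exact permutation p of 0.0166 and an adjusted limma p of 1.00. At high gain, high intake went with a difference of -0.32, and at low gain with one of 0.46 (SE 0.22 each). These SEs also rest on 1 shared spread, although the SDs were 0.04 in HGHI, 0.29 in HGLI, 0.51 in LGHI and 0.06 in LGLI steers. The interaction was -0.84 within array set 1 and -0.75 within set 2, with an exact permutation p of 0.0204 for exchanges within sets. It lay between -0.93 and -0.57 when each steer was left out. The signal was below the 25th percentile on 13 of 16 arrays. The mean of the 11 T and NK cell markers was 6.80 to 7.26 in HGHI, 6.86 to 7.32 in HGLI, 7.08 to 8.0 in LGHI and 7.0 to 7.07 in LGLI steers, with an interaction of -0.47. Of these, CD2, an adhesion receptor of T and NK cells, had an interaction of -1.11 with an unadjusted limma p of 0.0124. The mean of the 6 smooth muscle markers was 8.92 to 9.43, 9.18 to 10.20, 8.72 to 9.28 and 8.69 to 9.54 in the same order of groups, with an interaction of -0.27. Of these CNN1, the actin-binding protein calponin 1, had an interaction of -1.32 with an unadjusted limma p of 0.0195. The median interaction of the 6 markers was -0.07, and 2 of the 6 were positive. Over the list the calls were 2 in the F and 2 in the gain effect, beside 2.33% and 3.48% of all clusters. The intake effect called 1 and the interaction 1, beside 2.86% and 2.81%. The mean of the neutrophil markers had an interaction of -0.16, and those of the remaining lists lay between -0.04 and 0.46. The part of these cells in the ADAMTSL3 result was not tested.

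ADAMTSL2, which binds fibrillin, had means of 7.89 ± 0.48, 8.04 ± 0.38, 7.81 ± 0.39 and 8.14 ± 0.36, and ADAMTSL4 had an interaction of -0.41 (exact permutation p = 0.0334, unadjusted limma p of 0.0928). In the ADAMTSL1 cluster 12894406 the HGLI steers lay above the LGHI steers without overlap, with means of 7.79 ± 0.18 and 7.41 ± 0.14 (SD, n = 4), with an exact permutation p of 0.0573 over the 4 groups. The other ADAMTSL1 cluster, 12892532, had means of 7.34 ± 0.14 and 7.46 ± 0.28 in these groups, in the other order.

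The inhibitors had 0 calls in the limma fit to the deposited values of all 16 steers without a term for the array set. TIMP1, a secreted inhibitor of most MMPs, was at 7.89, 7.90, 7.94 and 7.98 in HGHI and 8.40, 8.15, 8.03 and 9.28 in HGLI steers. It was at 8.25, 8.50, 8.12 and 7.60 in LGHI and 8.06, 8.26, 8.73 and 7.64 in LGLI steers. The HGHI steers were close together and all below the HGLI steers, of which 1 stood far above the rest, while the low gain groups reached above and below them. The F had a limma p of 0.310 and the intake effect was -0.30 (SE 0.20, exact permutation p = 0.162).

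TIMP3, which is held in the matrix and inhibits ADAMTS4 and ADAMTS5 as well as MMPs, was at 10.20, 9.34, 9.14 and 9.88 in HGHI and 9.14, 9.99, 9.67 and 10.32 in HGLI steers. It was at 9.81, 9.65, 9.84 and 8.64 in LGHI and 10.01, 9.85, 10.18 and 9.31 in LGLI steers. The groups overlapped throughout. The interaction of TIMP3, whose target ADAMTS5 had one of 1.50, was 0.21 (95% interval -0.76 to 1.18, exact permutation p = 0.658).

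TIMP4 was at 5.84, 6.33, 5.61 and 6.05 in HGHI, 6.38, 6.58, 6.04 and 5.96 in HGLI, 6.35, 6.18, 6.14 and 5.80 in LGHI and 6.32, 6.93, 6.71 and 6.02 in LGLI steers. The groups overlapped. Its intake effect was -0.33 (SE 0.16, 95% interval -0.67 to 0.01, exact permutation p = 0.0535), at -0.51 within array set 1 and -0.03 within set 2. The unadjusted limma p of this effect was 0.0568, and it was 0.0478 after median subtraction. It lay between 0.0185 and 0.0493 without each of 5 steers (replicate 2 of HGHI, 3 and 4 of HGLI, 1 of LGHI or 4 of LGLI). The F of TIMP4 was called without replicate 4 of LGLI. The signal was below the 25th percentile on 9 of 16 arrays.

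TIMP2 inhibits MMPs and also takes part in the activation of the MMP2 precursor by MMP14. Its cluster 12760918 was at 8.77, 8.08, 8.0 and 8.09 in HGHI, 8.41, 7.97, 8.14 and 8.12 in HGLI, 8.62, 8.37, 7.88 and 7.93 in LGHI and 8.49, 8.70, 8.69 and 7.88 in LGLI steers. Its cluster 12766730 was at 6.03, 5.57, 5.32 and 5.69, then 5.87, 5.91, 6.05 and 5.77, then 5.93, 5.96, 5.30 and 5.28, and then 5.69, 5.59, 5.86 and 5.18 in the same order of groups, below the 25th percentile of every array. In neither cluster did any of the groups separate. All 5 TIMP clusters had a negative intake effect, from -0.33 to -0.08 with a median of -0.24, where 11365 of 26773 clusters had a positive one. Within array set 1 the effect was positive in 3 of the 5, at 0.23 and 0.19 in the TIMP2 clusters and 0.18 in TIMP3. All 5 clusters were higher in set 1, by 0.22 to 0.49, and set 1 held 3 high intake and 5 low intake steers. The part of the array sets in the negative effects was not tested.

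**Figure D3:**
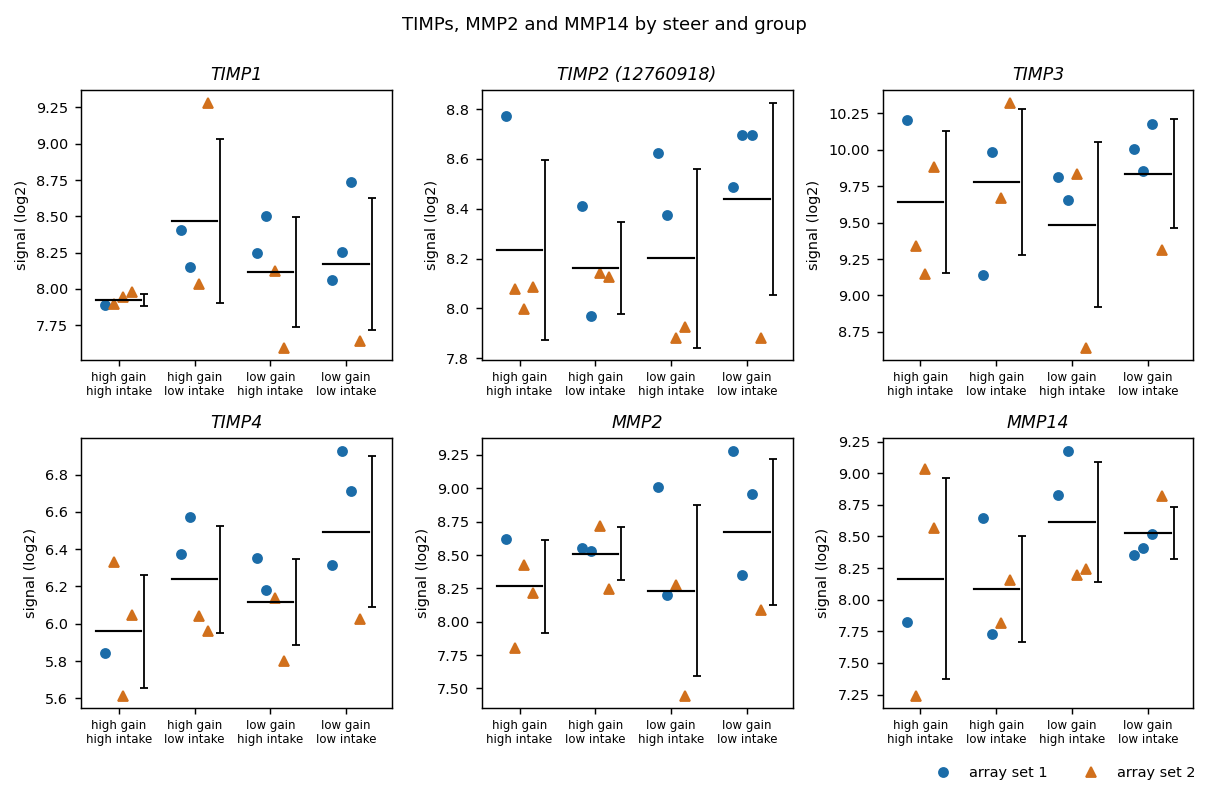
Signal (log2) of TIMP1, TIMP2 (cluster 12760918), TIMP3, TIMP4, MMP2 and MMP14 in each steer by group, with circles for array set 1 and triangles for array set 2, a line at the group mean and a bar of 1 SD on each side. The groups overlap in every panel except that the HGHI steers lie below the HGLI steers in TIMP1.

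MMP2 is the gelatinase made by stellate cells and fibroblasts. Its signal was 8.62, 7.80, 8.43 and 8.22 in HGHI and 8.55, 8.53, 8.72 and 8.24 in HGLI steers. It was 9.01, 8.20, 8.28 and 7.45 in LGHI and 9.28, 8.35, 8.96 and 8.09 in LGLI steers. The groups overlapped, and the intake effect was -0.34 (SE 0.22, exact permutation p = 0.142), with set 1 above set 2 by 0.53. MMP9, the gelatinase of neutrophils and macrophages, was at 6.51, 6.55, 6.39 and 6.45 in HGHI, 5.83, 5.63, 6.83 and 6.13 in HGLI, 5.61, 5.50, 6.63 and 6.71 in LGHI and 5.74, 5.89, 6.02 and 6.46 in LGLI steers. The HGHI steers varied little (SD 0.07) and lay inside the range of both middle groups, and no effect passed (exact permutation p = 0.507 over the 4 groups). The 9 measured neutrophil markers had means of 6.34 to 6.48 in the groups and no unadjusted p of 0.05 or less.

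MMP14, the membrane-bound activator of MMP2, was at 7.82, 7.24, 9.04 and 8.57 in HGHI and 8.64, 7.73, 7.81 and 8.15 in HGLI steers. It was at 8.83, 9.18, 8.20 and 8.24 in LGHI and 8.36, 8.41, 8.52 and 8.82 in LGLI steers. The low gain steers lay between 8.20 and 9.18, and the high gain steers spread from 7.24 to 9.04. The gain effect was -0.44 (SE 0.24, 95% interval -0.95 to 0.07, exact permutation p = 0.0870), at -0.71 within set 1 and -0.39 within set 2.

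MMP15, a further membrane-type MMP, was at 8.61, 8.66, 8.18 and 8.85 in HGHI, 9.15, 9.21, 7.84 and 8.52 in HGLI, 9.31, 9.24, 8.56 and 7.68 in LGHI and 9.11, 9.23, 9.35 and 8.09 in LGLI steers. Its difference between the array sets, 0.85, was larger than the span of its group means, which ran from 8.57 to 8.95. MMP25, a membrane-type MMP known from leukocytes, had means of 5.94 ± 0.11 and 6.0 ± 0.11 in the high gain groups and 6.16 ± 0.34 and 6.24 ± 0.08 in the low gain groups. Every LGLI steer was above every high gain steer in MMP25, and the gain effect of -0.23 had an exact permutation p of 0.0225 and an unadjusted limma p of 0.0655. MMP16, MMP17 and MMP24 had overlapping groups and gain effects of 0.23, 0.17 and -0.10.

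MMP19, which cuts basement membrane proteins, had the one gain effect past 0.5 in size. It was at 7.89, 7.11, 8.24 and 8.64 in HGHI, 8.75, 8.09, 7.37 and 7.52 in HGLI, 8.75, 9.88, 7.85 and 8.31 in LGHI and 8.22, 8.24, 8.83 and 7.84 in LGLI steers. The groups overlapped and 1 LGHI steer stood above all others. The effect was -0.54 (SE 0.30, 95% interval -1.18 to 0.10, exact permutation p = 0.106), and set 1 exceeded set 2 by 0.72.

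The collagenases were measured by 4 clusters. MMP1, the interstitial collagenase, was at 8.55, 9.20, 9.38 and 9.07 in HGHI and 8.89, 8.46, 9.65 and 9.23 in HGLI steers in cluster 12726701. It was at 8.59, 8.57, 9.19 and 9.72 in LGHI and 8.18, 7.80, 8.43 and 8.83 in LGLI steers. The LGLI group had the lowest mean (8.31 ± 0.43, against 9.02 to 9.06 in the other groups) but overlapped all of them.

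The F of this MMP1 cluster had a limma p of 0.0756 and an exact permutation p of 0.116. Set 2 exceeded set 1 in it, with a difference of set 1 minus set 2 of -0.85, and 3 of the 4 LGLI steers were in set 1. With a term for the array set in limma, the F and the interaction of this cluster were called. The interaction, -0.72 in the fit without that term, was -0.57 within set 1 and -0.86 within set 2, and exchanges within sets gave an exact permutation p of 0.0143. The other MMP1 cluster, 12726411, was at 6.16, 7.37, 6.84 and 6.23, then 6.68, 7.28, 6.30 and 7.11, then 6.72, 6.51, 6.84 and 7.64, and then 6.46, 6.37, 6.12 and 6.93 in the same order of groups. Its groups overlapped and its interaction was -0.65 (exact permutation p = 0.163).

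MMP13, collagenase 3, was at 5.19, 4.91, 4.76 and 5.08 in HGHI, 5.01, 5.09, 4.95 and 4.91 in HGLI, 4.86, 4.97, 4.83 and 5.03 in LGHI and 4.86, 4.49, 4.86 and 4.73 in LGLI steers. The LGLI steers lay below the HGLI steers without overlap, all below the 25th percentile of their arrays. MMP8, the neutrophil collagenase, had means of 6.06 ± 0.16, 6.10 ± 0.06, 5.92 ± 0.09 and 5.91 ± 0.13 (SD, n = 4), and here too the HGLI steers were above the LGLI steers. The gain effect of both was 0.16, and the exact permutation p was 0.0497 for MMP13 and 0.00932 for MMP8. Neither gene was called by limma, whose unadjusted p for gain was 0.145 and 0.108.

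The stromelysins, matrilysin and metalloelastase did not separate the groups. MMP3, stromelysin 1, was at 5.75, 5.87, 5.64 and 5.48 in HGHI, 5.92, 5.33, 5.48 and 5.82 in HGLI, 5.47, 5.46, 5.28 and 5.93 in LGHI and 5.29, 5.53, 5.51 and 5.92 in LGLI steers. MMP20, the protease of tooth enamel, was at 5.65, 5.80, 5.70 and 5.75, then 5.81, 5.66, 5.61 and 5.70, then 5.39, 5.75, 5.93 and 6.03, and then 5.23, 5.60, 5.55 and 5.58 in the same order of groups. Every LGLI steer was below every high gain steer in MMP20, at signals below the 25th percentile of every array, and the exact permutation p over the 4 groups was 0.162. MMP7, matrilysin, had the largest spread within groups of all members (pooled SD 0.69), with means between 6.98 and 7.31. MMP11, MMP12, MMP23, MMP27 and MMP28 had unadjusted limma p-values of the F between 0.331 and 0.914.

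MMP13, MMP12, MMP3, MMP1, MMP8, MMP27, MMP20 and MMP7 follow each other in the bovine RefSeq annotation, with 2 protein-coding genes between MMP1 and MMP8. In the limma fit to all 16 steers with no term for the array set, the 4 tests called 0 of the 9 clusters of these genes. With that term MMP1 (12726701) was called, and leaving out single steers brought calls of the same cluster and of MMP20. Their gain effect was positive in 8 of 9 (median 0.11) and their interaction in 1 of 9 (median -0.19). Over the other 41 members the medians were -0.06 and -0.04. No test was made of this difference. Within array set 1 the gain effects of the neighbouring genes ran from 0.01 to 0.97. Within set 2 they ran from -0.33 to 0.19, and were negative in MMP1 (12726411), MMP3, MMP7, MMP20 and MMP27. The mean signal of these clusters was 6.26 in set 1 and 6.38 in set 2. The part of the array sets in the gain effects was not tested.

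Across the pairs of groups, members whose values did not overlap numbered 3 of 50 between HGHI and HGLI (ADAMTS7, ADAMTS8 and TIMP1), beside 1.54% of all clusters. Between HGLI and LGLI there were 5 (ADAMTS5, MMP8, MMP13, MMP20 and MMP25), or 10% of the members, beside 2.67%. Between HGHI and LGLI there were 3 (ADAMTS7, MMP20 and MMP25), beside 2.23%. One member separated HGLI from LGHI (ADAMTSL1, beside 1.84%), 1 separated the low gain groups (ADAMTS5, beside 1.79%), and 0 separated the high intake groups (beside 1.51%). These directions ran both ways, and 5 of the 9 members so named lay below the 25th percentile on most arrays.

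**Figure D4:**
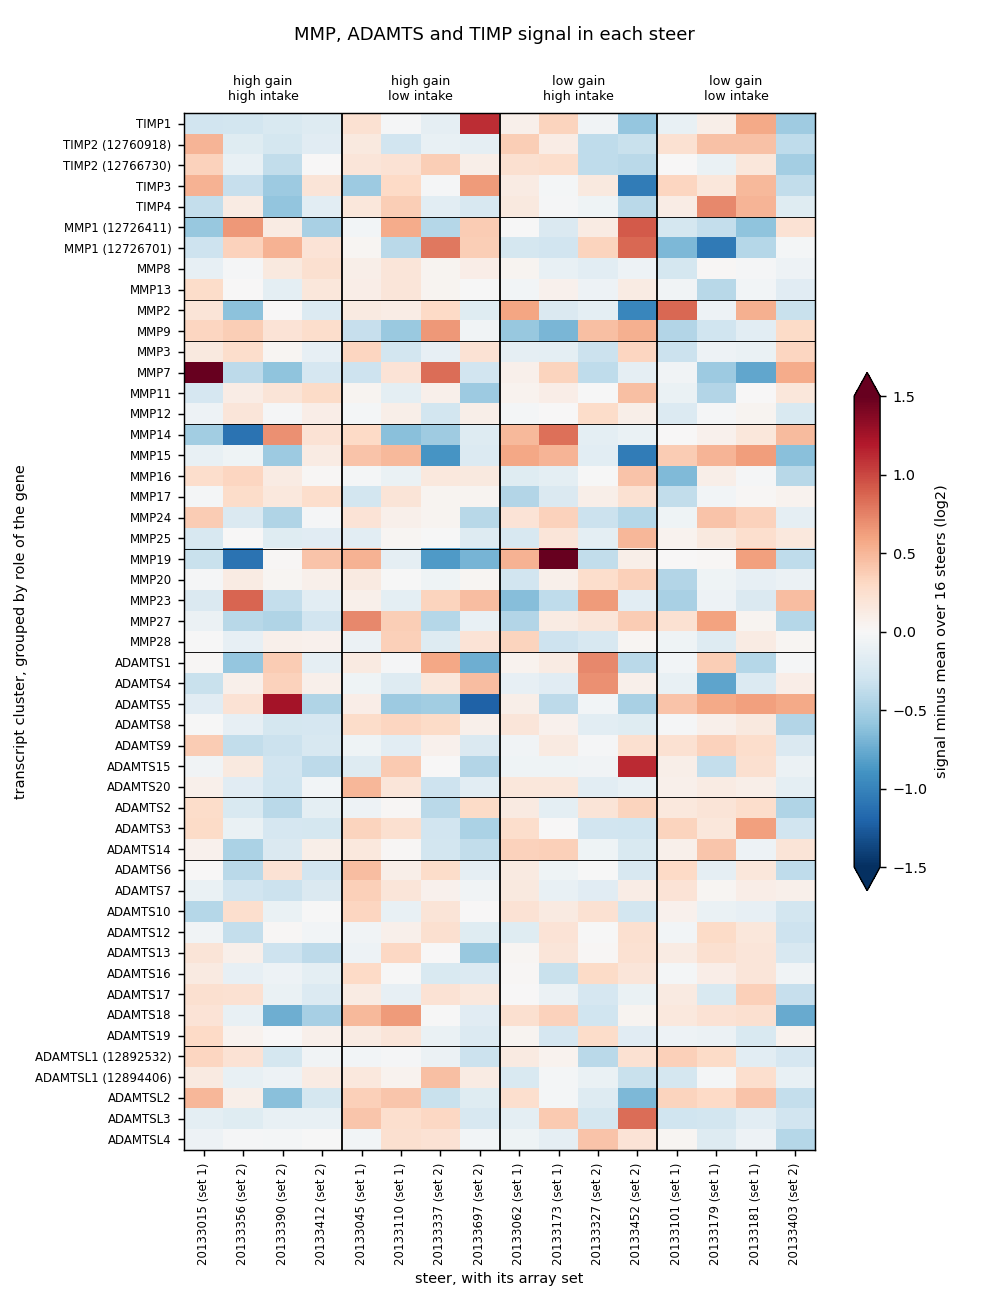
Signal of each of the 50 transcript clusters in each steer, as the difference (log2) from the mean of that cluster over the 16 steers, with steers grouped by phenotype and marked with their array set. Single tiles such as ADAMTS5 in steer 20133390, at 10.78, stand out more than whole groups, except for ADAMTS5 in the LGLI steers.

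The highest of the 4 group means fell in the HGHI group for 7 members, in the HGLI group for 16, in the LGHI group for 14 and in the LGLI group for 13. Over all clusters these shares were 14.8%, 26.4%, 26.8% and 32.0%. The lowest mean fell in the HGHI group for 19 members, beside 33.3% of all clusters. The pooled SD within groups ran from 0.12 for MMP8 to 0.69, with a median of 0.27. Of the 50 members 12 lay above the array median on every array, among them TIMP1, TIMP3, MMP2, MMP14, ADAMTS1 and ADAMTS5, and 8 lay below the 25th percentile on every array.

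Genes that act on or with these proteases were taken from 4 lists with 94 measured clusters of 97 named genes. Their counts were also near or below the shares over all clusters. Of the activators and other protease inhibitors (22 of 23 measured), PLAU, the urokinase that turns plasminogen into plasmin, had a gain effect of -0.37 with an unadjusted limma p of 0.0404, and CTSL, the lysosomal protease cathepsin L, an interaction of -0.77 with one of 0.0375. Of 37 clusters of matrix substrates and ligands, decorin had an intake effect of -0.30 with an unadjusted limma p of 0.0406 and NID2, a basement membrane linker, one of -0.41 with a p of 0.0423, and 9 of 37 intake effects were positive, beside 11365 of 26773 over all clusters. The mean of this list was 10.01 in array set 1 and 9.71 in set 2, and the part of the sets in these effects was not tested. Among 24 inducers, FOSL2 had an intake effect of -0.33 with an unadjusted limma p of 0.0355 and FOS an interaction of -1.46 with one of 0.0217, both members of the AP-1 transcription factor family that drives several MMP genes. The related ADAM proteases (11 of 12 measured) had 0 calls in the 4 tests. Over the 4 lists 0 of 94 clusters were called in the F and 1 in the gain effect, beside 2.33% and 3.48% of all clusters. The intake effect called 3 and the interaction 2, beside 2.86% and 2.81%. None had an adjusted limma p of 0.05 or less.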

How the data were processed

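Liver RNA of 16 steers, 4 per phenotype group, was hybridised to Affymetrix bovine gene arrays, 1 array per steer. The deposited values are log2 signals that the authors computed in Affymetrix Expression Console by RMA after GC count normalization and Signal Space Transformation. The submitters' processing notes also name Transcriptome Analysis Console. The genome build and the software versions were not given in the sources used here. Of 26773 transcript clusters, 18790 had 1 gene symbol in the array annotation, 385 had several and 7598 had none. Values were used as deposited, and groups were taken from the phenotype label. limma 3.58.1 (R 4.3.3) was fitted to all clusters with 1 mean per group and no covariate, giving a moderated F and contrasts for gain, intake and their interaction. P-values were adjusted by Benjamini-Hochberg over all clusters, and intervals are 95%. SEs and intervals use 1 moderated spread per cluster, shared by the 4 groups. The model was tested on simulated data. Exact permutation tests, two-sided for contrasts, used all partitions of 16 steers into 4 groups of 4 or all choices of 8 steers, with SciPy 1.17.1 and NumPy 2.4.6 under Python 3.11.15.

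Alternatives were the ordinary F of the methods, quantile normalization, median subtraction, leaving out dim clusters, the array set as a block and leaving out each steer. Exchanges within array sets were added after seeing the data. Members were named with all values where an unadjusted p was 0.05 or less in limma or in the ordinary F, where they were on a list of 15 genes (the 4 TIMPs, MMP2, MMP9, MMP14, MMP15, MMP19, ADAMTS1, ADAMTS5, ADAMTS7, ADAMTS8, ADAMTS9 and ADAMTS13), or where their mean was among the 5 highest or 5 lowest. Others with separate groups or past a size were named after their values were seen. Members and lists were chosen with earlier results of these data known. All 50 members were found by gene ID (44) or symbol in the RefSeq gene table of assembly ARS-UCD2.0, which served for the order of genes only. The 4 arrays per group limit the precision.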

Additional observations from a re-analysis of the deposited data

Results flagged for a closer look

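In 11 of 200 groups of 4 steers, 1 steer lay apart from the other 3 by the gap criterion of Dixon at 95%, which chance gives in about 1 of 20 groups. In the HGHI group, MMP7 was 8.92 in steer 20133015, beside 6.58 to 6.94, and TIMP2 (12760918) was 8.77 in the same steer, beside 8.0 to 8.09. In steer 20133356 of that group, MMP23 was 8.40, beside 7.19 to 7.38, and ADAMTS12 was 6.56, beside 6.86 to 6.92. In the LGHI group, steer 20133452 had ADAMTS15 at 8.45, beside 7.26 to 7.28, and TIMP3 at 8.64, beside 9.65 to 9.84. In the LGLI group, steer 20133403 was low in ADAMTSL2 (7.61, beside 8.27 to 8.39), in ADAMTS18 (5.30, beside 6.21 to 6.30) and in ADAMTS2 (7.05, beside 7.66 to 7.76), and it was the one steer of that group in array set 2. In the same group MMP20 was 5.23 in steer 20133101, beside 5.55 to 5.60, and ADAMTSL3 was 5.77 in steer 20133181, beside 5.64 to 5.66.

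The intake effect differed between high and low gain steers in ADAMTS5, with an interaction of 1.50, and in ADAMTSL3, with one of -0.78, both at an unadjusted limma p of 0.05 or less and neither after adjustment.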

How the results depend on the processing

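Counts of members at an unadjusted p of 0.05 or less were small and moved with the setting. The ordinary test gave 3 in the F over the groups, 4 (gain), 1 (intake) and 4 (interaction), and a limma fit blocked by array set gave 3, 2, 1 and 5. Quantile normalization gave 1 for gain (beside 4.14% of all clusters), median subtraction 1 for gain (3.59%), 3 for the interaction (3.04%) and 2 for intake (3.28%), and leaving out dim clusters, which kept 20 members, 0 for intake (2.44%) and 1 for the interaction (2.2%). Leaving out each steer gave 0 to 3 for the 4 groups (0 without HGLI replicate 4, beside 2.35%, and 3 without LGLI replicate 4, beside 3.53%), 0 to 3 for gain (3 without LGHI replicate 4, beside 4.93%), 0 to 4 for intake (4 without LGHI replicate 1, beside 4.04%, and 0 without any of 6 steers, beside 2.23% to 3.85%) and 2 to 3 for the interaction (3 without LGLI replicate 3, beside 2.51%). The ADAMTS5 and ADAMTSL3 interactions kept their sign and an unadjusted p of 0.05 or less in all settings in which they were tested; ADAMTSL3 and ADAMTS7 were among the dim clusters left out. The ADAMTS7 intake effect kept its sign in the settings in which it was tested. Over all clusters the gain calls were 319 higher and 613 lower, but 866 and 538 in the fit blocked by array set, 495 and 467 after median subtraction and 519 and 590 after quantile normalization. Causes were not tested. No paired analysis was possible because the labels give neither replicate numbers nor the harvest day of a steer. Signals below the 25th percentile of the array, in 20 members on 8 or more arrays, limit what can be seen of those genes.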

Other observations

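Steer 20133452 (LGHI) had the highest of the 16 values in 10 of 50 members, beside 11.4% of all clusters. It had the lowest in 6 of 50 members, beside 15.6% of all clusters. The 9 pairs of clusters were compared across the 8 steers within each array set, 18 relations in all. The TIMP2 clusters 12760918 and 12766730 were related in set 2 (Pearson's r = 0.92, exact permutation p = 0.00186, adjusted p = 0.0335; Spearman's rho = 0.98, exact permutation p = 0.000397, adjusted p = 0.00714; r = 0.92 without the 2 steers farthest from the median), but not in set 1 (r = -0.13, rho = -0.10, exact permutation p = 0.744 and 0.840; r = -0.42 without the 2 farthest). Both belong to 1 gene symbol, and the difference between the sets was not tested. In the other 16 relations, among them MMP14 with MMP2 and TIMP3 with ADAMTS5, the adjusted permutation p was 0.625 or more.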
